A study of Mus musculus with 6 samples.

Results

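The genes that detect and repair DNA damage were examined in mouse embryos that had lost Brg1. On the same arrays, many listed targets of the transcription factor p53 were raised. The set held 44 genes, taken by name: kinases of the damage checkpoint and proteins of the main repair pathways. Of these, 43 were measured by at least 1 probe. Palb2 was found under an older symbol, and Atr, for which no probe was matched by name, was not analysed here. The comparison addresses whether any of these genes moved together with the p53 targets.

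Expression was measured on 1-colour Agilent arrays in whole embryos at embryonic day 8.5, with 1 array per sample. Brg1, gene symbol Smarca4, is the ATPase of SWI/SNF chromatin remodelling complexes. Samples labelled Brg1d/d (Brg1 CKO, conditional knockout) numbered 3, and so did the wild-type controls labelled Brg1fl/fl, which carry the floxed gene. Per the labels, the dam had received an intraperitoneal injection of tamoxifen in both groups. Neither the Cre driver nor the number of embryos behind a sample is given in the sources used here. Nothing there says which part of the gene was removed either, so the position of the Smarca4 probes relative to it is unknown.

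Cells answer DNA damage in layers. The MRN complex and DNA-dependent protein kinase recognise broken ends, the kinases Atm and Atr pass the signal on through Chek2 and Chek1, and p53 is stabilised and raises genes that halt the cycle or start apoptosis. Separate machineries then mend breaks, bulky adducts, altered bases, mismatches and crosslinks. Some repair genes are themselves p53 targets, and others are made mainly while DNA is being copied. Much of the checkpoint acts through phosphorylation, which an array of RNA levels does not measure.

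Levels are given on a log2 scale, relative to the 75th percentile of the same array, so 0 is the level of a fairly bright probe and a difference of 1 is a 2-fold change. Each gene was read from its brightest probe. Differences are CKO minus control, with the standard error (SE) of a limma fit over 3 and 3 arrays, and a gene passed at a Benjamini-Hochberg adjusted p under 0.05. Smarca4 stood at 1.49, 2.65 and 2.0 in CKO 1, 2 and 3 and at 5.28, 4.45 and 4.50 in controls 1, 2 and 3. It fell by 2.69 ± 0.36 (SE, n = 3 and 3; limma, Benjamini-Hochberg adjusted p = 0.0114), with adjusted p = 0.0554 without CKO 3.

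The arrays were not alike in ways beyond genotype. CKO 2 was scanned on the same day as the 3 controls, whereas CKO 1 and CKO 3 had days of their own, and the brightest spike-in control read 12934 and 6905 units on those 2 arrays against 208550 to 241121 on the other 4. The difference of CKO 2 from the mean of the controls is therefore given as the same-day value. All 3 controls lay on 1 slide and each CKO array on a slide of its own, so slide and genotype cannot be told apart. Of the markers of the embryo proper, all 9 were well above background and 4 fell, with a summed linear level of 21.3 to 26.0 in CKO arrays and 69.2 to 97.3 in controls. Trophoblast markers rose for 5 of 7, with summed levels of 26.3 to 35.7 and 14.3 to 21.8, and of 5 decidual markers measured 3 fell and 1 rose. Control 1 had less of all 10 yolk sac endoderm markers and all 9 primitive erythroid markers than the other controls, by a median of 2.68 and 3.13 on the log2 scale. The part of these shifts in the results below was not tested, and in whole embryos fewer cells of a type and less RNA per cell cannot be told apart.

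Most checkpoint and repair genes showed no difference that passed. Of the 43 measured, 4 rose (Ercc2, Chek2, Xrcc2 and Polk) and 1 fell (Fancg), which is 11.6% called in either direction. Among all 15025 genes tested the shares were 10.6% in either direction, 5.25% higher and 5.31% lower. The same shares stand beside the counts by role below, which rest on few genes each. The median difference of the 43 genes was 0.04, with quartiles at −0.14 and 0.37, beside a median of 0.07 over all genes. On each of the 6 arrays all 43 exceeded background clearly, by the scanner's flag, and no probe of theirs was saturated.

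**Figure D1:**
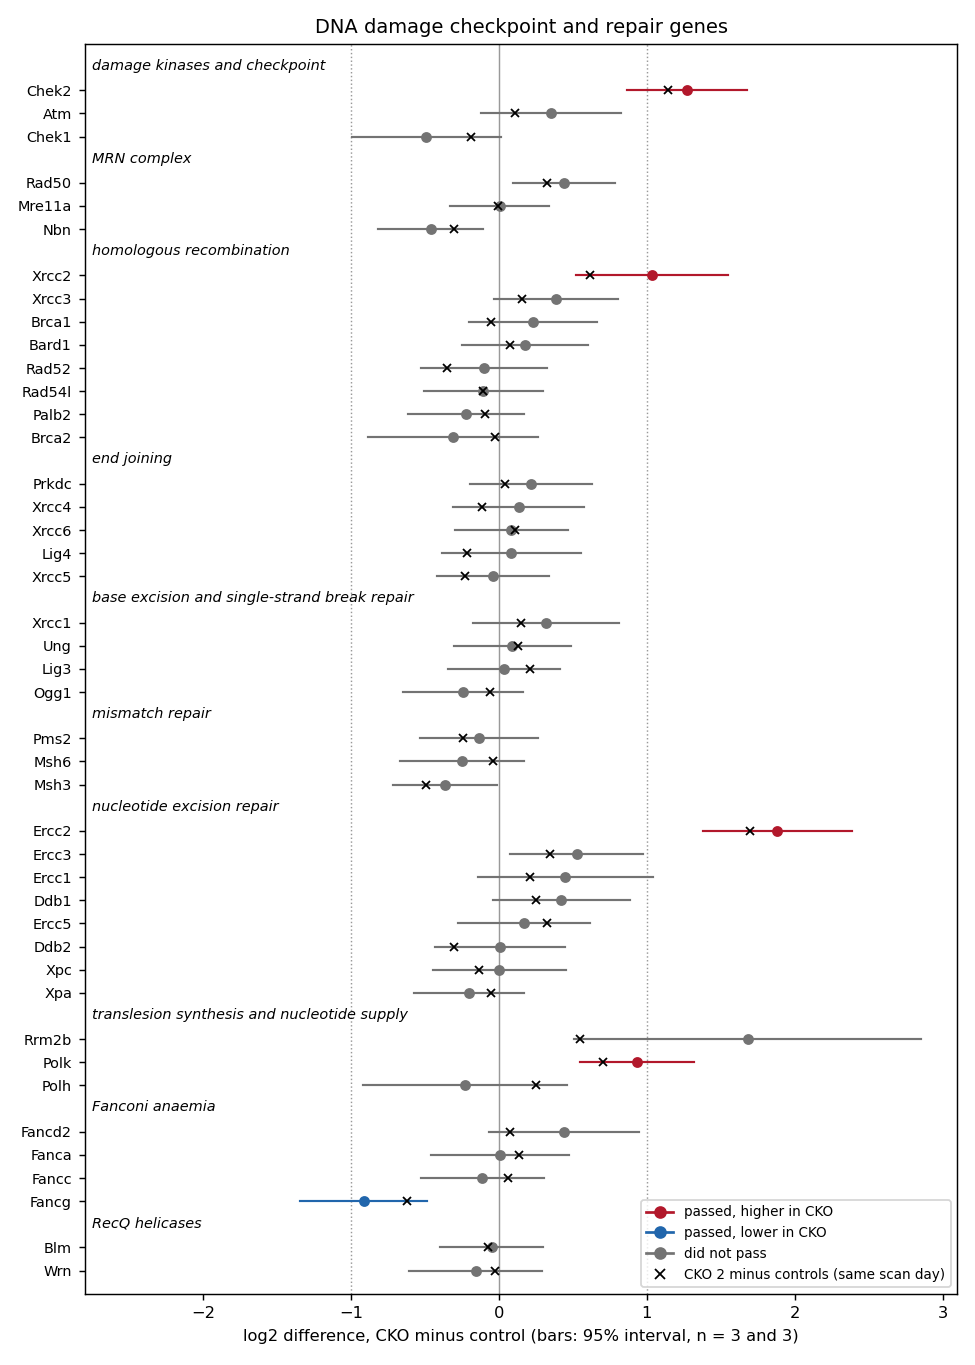
Difference in log2 signal, CKO minus control (x axis), for each of the 43 measured genes (y axis, grouped by role); points are limma estimates, bars 95% intervals over 3 and 3 arrays, and crosses the same-day difference of CKO 2 from the controls. The 4 genes that rose and Fancg, which fell, stand apart from a majority whose intervals cross 0, and Rrm2b has the widest bar.

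The width of the intervals shows what these arrays could detect. For 36 of the 43 genes (83.7%) the 95% interval lay wholly between −1 and 1, compared with 54.2% of all genes tested. SEs ran from 0.139 to 0.488. Without the adjustment for multiple tests, 10 of the 43 (23.3%) had a limma p under 0.05, against 4889 of all genes tested (32.5%). The 3 CKO levels all lay above the 3 control levels for 9 genes and all below for 5, while over all genes tested 22.8% were separated upwards, 19.1% downwards and 41.9% in either direction.

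Because the genes that passed differ in function, the sequence just upstream of their start sites was set out for inspection. The windows are the 250 bases before the RefSeq start (GRCm38.p6), 5′ to 3′ on the gene's strand, and no window was given for Xrcc2. Capitals mark E2F words (TTTCCCGC, TTTGGCGC, TTTCGCGC or TTTGCCGC), the CCAAT box (CCAAT), the CHR word (TTTGAA) and the p53 decamer, each searched on both strands. E2F and CHR words are read by regulators of the cell cycle, and CCAAT boxes by NF-Y. The p53 decamer is a half-site, RRRCWWGYYY, where R is A or G, W is A or T and Y is C or T.
Chek2 (chr5:110839733-110839982, plus strand): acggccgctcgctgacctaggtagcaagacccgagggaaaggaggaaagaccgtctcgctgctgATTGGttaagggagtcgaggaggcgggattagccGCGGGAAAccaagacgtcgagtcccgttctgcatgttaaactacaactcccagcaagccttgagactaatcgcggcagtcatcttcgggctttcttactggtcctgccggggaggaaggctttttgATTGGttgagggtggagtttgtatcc
Ercc2 (chr7:19381767-19382016, plus strand): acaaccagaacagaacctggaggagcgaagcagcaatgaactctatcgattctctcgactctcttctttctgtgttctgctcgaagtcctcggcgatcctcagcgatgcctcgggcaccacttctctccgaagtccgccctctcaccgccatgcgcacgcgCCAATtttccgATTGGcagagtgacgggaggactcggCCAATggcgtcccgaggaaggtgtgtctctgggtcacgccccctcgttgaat
Fancg (chr4:43010302-43010551, minus strand): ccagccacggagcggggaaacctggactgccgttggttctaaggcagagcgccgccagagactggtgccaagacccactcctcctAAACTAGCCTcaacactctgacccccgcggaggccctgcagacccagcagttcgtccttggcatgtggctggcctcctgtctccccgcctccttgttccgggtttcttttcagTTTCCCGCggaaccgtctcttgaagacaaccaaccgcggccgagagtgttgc
Polk (chr13:96542580-96542829, minus strand): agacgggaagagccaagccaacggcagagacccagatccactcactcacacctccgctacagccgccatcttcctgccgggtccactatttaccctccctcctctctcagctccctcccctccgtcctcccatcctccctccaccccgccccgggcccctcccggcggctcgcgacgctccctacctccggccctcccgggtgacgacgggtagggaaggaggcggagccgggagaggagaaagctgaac

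The windows of Chek2, which rose, and Fancg, which fell, each held 1 E2F word, Chek2 also 2 CCAAT boxes and Fancg 1 p53 decamer. Ercc2 held 3 CCAAT boxes, and Polk none of the marked words. RefSeq windows were matched for 34 of the 44 genes, and 6 of these (17.65%) held an E2F word, against 1.92% of 27025 genes and 2.43% of 17491 protein-coding genes. The 6 were Bard1, Brca2, Chek2, Fancg, Msh3 and Xrcc6, whose differences ran in both directions. CCAAT boxes were in 50% of the 34 windows (34.5% of all windows, 36.5% of protein-coding ones) and CHR words in 5.88% (16.3% and 15.1%). A GC box (GGGCGG, not capitalised) was in 64.7% (33.0% and 42.7%). The p53 decamers were in 5.88% (7.16% and 6.31%), in Fanca and Fancg. These matches describe the letters only.

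Of the 3 damage kinases and checkpoint genes measured, 1 rose, Chek2. It encodes the checkpoint kinase that Atm activates, and was read at −0.95, −0.99 and −0.65 in CKO 1, 2 and 3 and at −2.06, −2.29 and −2.06 in controls 1, 2 and 3. Every CKO array lay above every control. Chek2 rose by 1.27 ± 0.17 (SE, n = 3 and 3; 2.41-fold; limma, Benjamini-Hochberg adjusted p = 0.0109), with a same-day value of 1.15. This probe lies at chr5:110031736-110031795 on build mm7, the build of the array's own annotation.

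A dimmer Chek2 probe, at chr5:110015832-110015891, gave 0.25 ± 0.23 with overlapping groups. The ratio of the brighter to the dimmer probe was larger in each CKO array than in any control, and differed by 1.02 (exact two-sided permutation p = 0.1, the smallest that 3 and 3 arrays allow). Adjusted over the 6 probe pairs compared in the same way, p was 0.15. Pairs were formed only for genes whose brightest probe had passed, a choice that favours ratios that separate the genotypes. Which transcripts each probe reads was not tested.

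Atm, the kinase that answers double-strand breaks, was read at −0.35, −0.52 and 0.04 in CKO arrays and −0.48, −0.75 and −0.66 in controls, which overlap. Its difference was 0.35 ± 0.20 (limma, Benjamini-Hochberg adjusted p = 0.256), and a dimmer probe gave −0.15. Chek1 encodes the kinase downstream of Atr at stalled forks. It was read at 0.29, 0.97 and 0.74 in CKO arrays and 1.09, 1.10 and 1.27 in controls. All CKO values were lower, yet the difference of −0.49 ± 0.21 did not pass (adjusted p = 0.166), and on the same day it was −0.19.

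Genes of the MRN complex, which holds broken ends and activates Atm, did not pass in either direction. Of the 3, 2 had an unadjusted limma p under 0.05, beside 32.5% of all genes tested. Nbn, its regulatory subunit, was read at 2.99, 3.22 and 2.98 in CKO arrays and 3.49, 3.53 and 3.56 in controls. All 3 of its probes had lower levels in every CKO array than in any control, with differences of −0.46 ± 0.15, −0.41 ± 0.15 and −0.89 ± 0.23. For the brightest the limma adjusted p was 0.0959, and it passed at 0.045 when the fit allowed for an intensity trend with robust variances. The array annotation places the dimmest on the opposite strand. Rad50, the coiled-coil subunit, differed the other way by 0.44 ± 0.14 at its brightest probe (limma adjusted p = 0.0996). A dimmer Rad50 probe, well above background in only 1 CKO array, gave −0.14 ± 0.24 with overlapping groups. Mre11a, the nuclease, differed by 0.01 ± 0.14.

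Homologous recombination, which copies the intact sister chromatid, contributed 1 rise among 8 genes. Xrcc2 is a factor of strand exchange in this pathway. Its brightest probe, at chr5:24731553-24731612 (mm7), was read at −0.77, −1.43 and −0.84 in CKO arrays and −1.96, −2.09 and −2.09 in controls. CKO 2 was closest to the controls but did not overlap them. The rise was 1.03 ± 0.21 (2.05-fold; limma, Benjamini-Hochberg adjusted p = 0.0361), and 0.61 on the same day.

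The other Xrcc2 probes did not repeat this rise. The next brightest, at chr5:24733385-24733444, gave −0.51 ± 0.20 with all CKO arrays below the controls, and the dimmest, at chr5:24739560-24739619, gave 0.23 ± 0.24. The brightest, taken because it had passed, already separated the genotypes. Its ratio to each of the others did so too, by 1.55 and 0.80 (exact permutation p = 0.1 for both, 0.15 after adjustment over the 6 pairs). Without CKO 1 or without CKO 3 the next brightest probe became the brightest, and the gene was then read at −0.55 (adjusted p = 0.274) or −0.35 (adjusted p = 0.378). The sign of the value for Xrcc2 as a gene therefore depends on the probe. This was not particular to Xrcc2. Of the 23 genes of the set with more than 1 kept probe, 11 had probes that differed in sign.

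**Figure D2:**
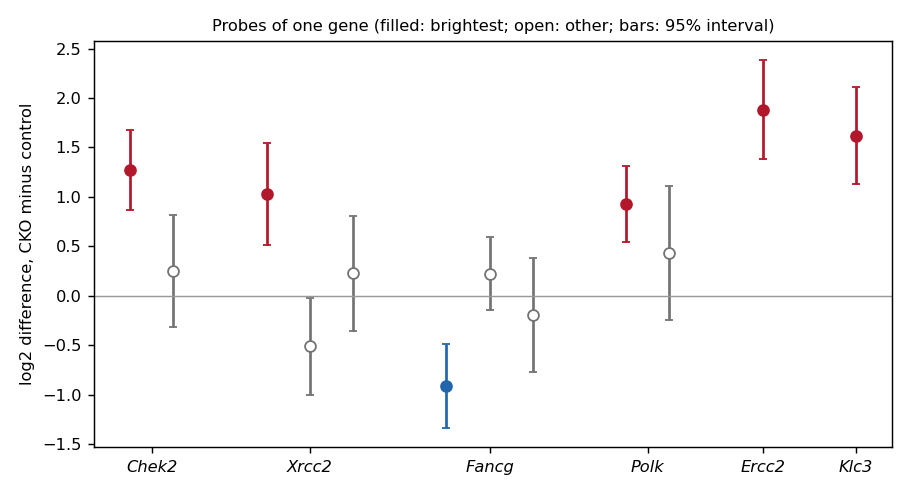
Log2 difference, CKO minus control (y axis), of every probe kept for the 5 genes that passed and for Klc3 (x axis); filled points are the brightest probe of a gene, open points its other probes, and bars are 95% intervals. The other probes of Chek2, Xrcc2, Fancg and Polk lie closer to 0 or across it, and Ercc2 has a single probe with a value near that of Klc3.

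The remaining recombination genes differed by less than 0.4. Xrcc3, another such factor, gave 0.39, Brca1 0.23, and its partner Bard1 0.18. Brca2, a mediator of strand exchange, gave −0.31 and Palb2, which links Brca1 to Brca2, −0.22. Rad54l, a motor protein of strand exchange, gave −0.11 and Rad52, an annealing protein, −0.10. Only Xrcc3 had groups that did not overlap among these 7, and its adjusted p was 0.184.

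End joining, which ligates broken ends directly, had no gene past the threshold among 5 and none at an unadjusted limma p under 0.05. Prkdc, the DNA-dependent protein kinase, was read at 0.21, −0.18 and −0.05 in CKO arrays and −0.35, −0.09 and −0.23 in controls. It differed by 0.22 ± 0.17 (limma, Benjamini-Hochberg adjusted p = 0.404). The end-binding Ku subunits Xrcc6 and Xrcc5 gave 0.08 and −0.04, and the ligase Lig4 and its partner Xrcc4 gave 0.08 and 0.13. All 5 intervals lay between −1 and 1.

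Base excision and single-strand break repair likewise had no gene past the threshold among 4, and none at an unadjusted p under 0.05 by limma. The scaffold Xrcc1 was read at 4.02, 3.79 and 4.06 in CKO arrays and 3.98, 3.38 and 3.55 in controls, a difference of 0.32 ± 0.21 (adjusted p = 0.318). The glycosylases Ogg1, which removes oxidised guanine, and Ung, which removes uracil, gave −0.24 and 0.09, and the ligase Lig3 gave 0.04.

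Mismatch repair genes all had differences below 0. Msh3, which recognises small loops, was read at 1.87, 1.71 and 1.94 in CKO arrays and 2.27, 2.18 and 2.16 in controls. These do not overlap, and the difference was −0.36 ± 0.15 (limma, Benjamini-Hochberg adjusted p = 0.149; same day, −0.49). Its other 3 probes gave −1.01, −0.77 and −0.34, none past the threshold. Msh6, which recognises single-base mismatches, gave −0.25 and Pms2, an endonuclease subunit, −0.13.

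Nucleotide excision repair, which cuts out bulky adducts, held the largest difference of the set among 8 genes. Ercc2 encodes the XPD helicase of transcription factor TFIIH. It was read at −1.17, −1.48 and −1.23 in CKO arrays and −2.82, −3.30 and −3.42 in controls, a gap of more than 1 between the groups. The rise was 1.88 ± 0.21 (SE, n = 3 and 3; 3.69-fold; limma, Benjamini-Hochberg adjusted p = 0.0067), with a same-day value of 1.70. It was the only 1 of the 5 genes to pass with each array left out in turn.

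The Ercc2 value is uncertain as a reading of that gene. Its only probe lies at chr7:17077307-17077366 (mm7, plus strand), 360 bases from the probe of Klc3, a kinesin light chain gene on the opposite strand at chr7:17076887-17076946. In GRCm38.p6 the genes Ercc2 and Klc3 overlap by 1255 bases. Klc3 was read at 0.85, 0.49 and 0.85 in CKO arrays and −1.05, −1.04 and −0.57 in controls. It rose by 1.62 ± 0.20 (limma, adjusted p = 0.00986), so both probes rose together. The part of Klc3 transcripts in the Ercc2 signal was not tested.

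Other excision repair genes did not pass. Ercc3, the XPB helicase of TFIIH, was read at 2.44, 1.96 and 2.02 in CKO arrays and 1.72, 1.65 and 1.47 in controls. They do not overlap, and the difference was 0.53 ± 0.19 (limma, Benjamini-Hochberg adjusted p = 0.118). The nuclease subunit Ercc1 gave 0.45, the damage sensor Ddb1 0.42 and the scaffold Xpa −0.20. Xpc, Ddb2 and Ercc5 are described with the p53 targets.

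Fanconi anaemia genes act on interstrand crosslinks, and 1 of 4 fell. Fancg belongs to the core complex that ubiquitinates Fancd2. Its brightest probe, at chr4:43016178-43016237 (mm7), was read at 0.47, 0.90 and 0.45 in CKO arrays and 1.44, 1.56 and 1.55 in controls. The groups did not overlap, with CKO 2 again nearest to the controls. Fancg fell by 0.91 ± 0.18 (1.88-fold; limma, Benjamini-Hochberg adjusted p = 0.0312), and the same-day value was −0.62.

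As with Xrcc2, the other Fancg probes differed. They gave 0.22 ± 0.15 and −0.19 ± 0.24, with overlapping groups. The ratio to the former separated the genotypes by −1.13 (exact permutation p = 0.1, adjusted 0.15), and the ratio to the latter, −0.72, did not (exact permutation p = 0.3, adjusted 0.3). Fancd2, the protein ubiquitinated at crosslinks, gave 0.44 with overlapping groups (limma adjusted p = 0.202). The core members Fancc and Fanca gave −0.11 and 0.01. The RecQ helicases Wrn and Blm, which unwind recombination intermediates, gave −0.16 and −0.05. For Wrn, levels were −1.90, −1.54 and −1.57 in CKO arrays and −1.46, −1.75 and −1.34 in controls (difference −0.16 ± 0.19, adjusted p = 0.587).

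The 6 genes of the set that are listed as p53 targets in mouse or human cells are Polk, Rrm2b, Xpc, Ddb2, Polh and Ercc5. The list pools both species, and which of the 6 respond to p53 in mouse embryos was not tested. Polk, 1 of the 6, rose, beside 5.25% of all genes tested, so a count from 6 genes says little. An unadjusted limma p under 0.05 was found for 2 of the 6 (33.3%, against 32.5% of all genes). The median difference of the 6 was 0.09, and 0.29 on the same day. Polk is a translesion polymerase, and its brightest probe, at chr13:93550654-93550713 (mm7), was read at −1.49, −1.83 and −1.49 in CKO arrays and −2.55, −2.51 and −2.55 in controls. Every CKO array was higher. It rose by 0.93 ± 0.16 (1.91-fold; limma, Benjamini-Hochberg adjusted p = 0.0228; same day, 0.71). A dimmer Polk probe gave 0.43 ± 0.28, and the ratio of the probes overlapped between genotypes (0.50; exact permutation p = 0.3, adjusted 0.3).

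Rrm2b, the p53-induced subunit of ribonucleotide reductase, was read at −3.87, −5.49 and −3.70 in CKO arrays and −5.75, −5.95 and −6.40 in controls. CKO 1 and CKO 3 were high and CKO 2 lay close to the controls, so that the difference of 1.68 ± 0.49 did not pass (limma, Benjamini-Hochberg adjusted p = 0.0786). It was 0.55 on the same day, and without CKO 2 it was 2.25 and passed (adjusted p = 0.0139). It had the widest interval of the 43 genes, 0.51 to 2.85.

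**Figure D3:**
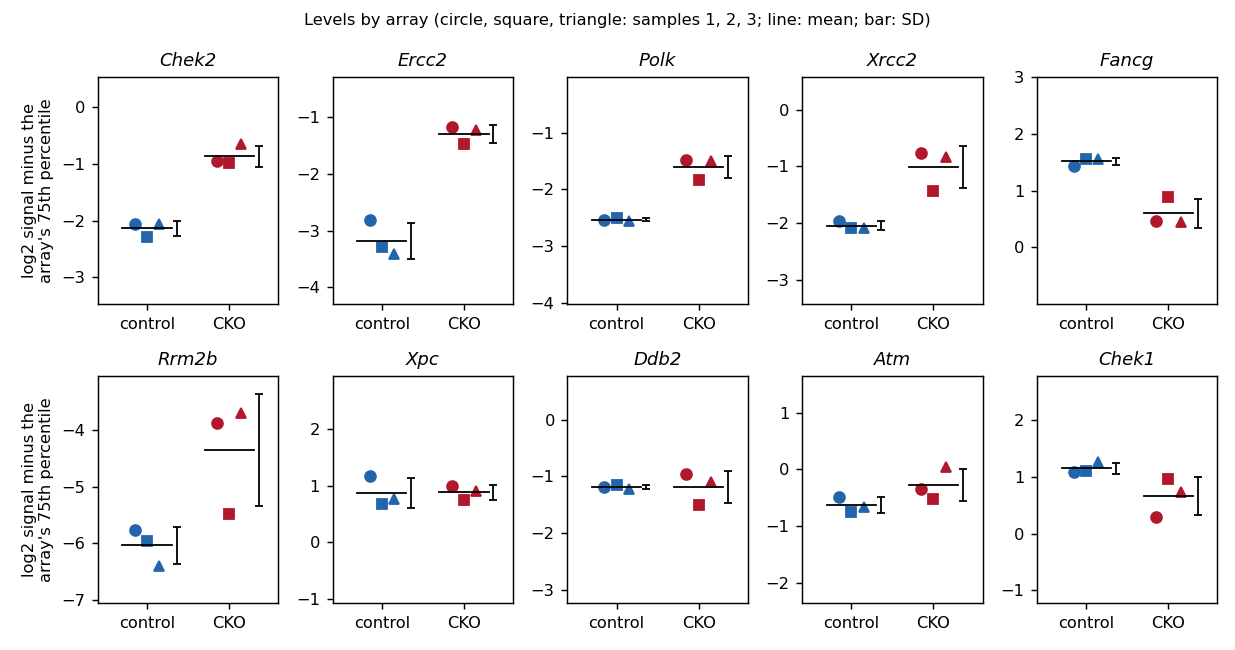
Signal on a log2 scale, relative to each array's 75th percentile (y axis, equal span in each panel), of 10 genes in controls and CKO embryos; circles, squares and triangles are samples 1, 2 and 3, lines are means and bars SDs. Chek2, Ercc2, Polk and Xrcc2 are higher in every CKO array and Fancg lower, CKO 2 of Rrm2b sits near the controls, and Xpc and Ddb2 overlap.

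Xpc, which recognises helix distortion, was read at 1.0, 0.74 and 0.90 in CKO arrays and 1.18, 0.68 and 0.77 in controls. Its difference was 0.00 ± 0.19, with a 95% interval of −0.45 to 0.45. Ddb2, which binds ultraviolet lesions with Ddb1, was read at −0.97, −1.50 and −1.10 and at −1.19, −1.16 and −1.23. The difference was 0.01 ± 0.18, with an interval of −0.43 to 0.45. Both genes overlapped between the genotypes, and a rise of 1 or more on the log2 scale lies outside either interval.

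Ercc5, the 3′ nuclease of excision repair, was read at −0.62, −0.25 and −0.35 in CKO arrays and −0.34, −0.63 and −0.76 in controls (0.17 ± 0.19, limma adjusted p = 0.551). Polh, the polymerase that bypasses ultraviolet lesions, was read at −4.50, −3.44 and −3.83 and at −3.89, −3.57 and −3.62. It differed by −0.23 ± 0.29 (adjusted p = 0.6), and a dimmer probe gave 0.29. Neither gene separated the genotypes.

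Targets of p53 outside the set were read in the same arrays. Of 20 such genes, 13 rose and 0 fell (limma; 15 had an unadjusted p under 0.05), with a median difference of 0.99 (same day, 1.16). Of all genes tested 5.25% rose. The list was chosen with earlier results of these data known, so its count is not independent evidence of a p53 response. The count that rose was 6 without CKO 1, 6 without CKO 3 and 5 without control 2. It was 7 with the replicate number as a block. With the spike-in split or scan day as a block, only CKO 2 is set against the controls, which is the same-day comparison. Cdkn1a, the cyclin-dependent kinase inhibitor p21, was read at −0.40, −0.96 and −0.55 in CKO arrays and −2.58, −2.66 and −2.45 in controls. It rose by 1.93 ± 0.19 (limma, Benjamini-Hochberg adjusted p = 0.00492), Ccng1, cyclin G1, by 1.80 ± 0.22 (0.00868), and Mdm2, the ubiquitin ligase of p53, by 0.93 ± 0.16 (0.0245). Mdm2 did not pass without CKO 1, CKO 3, control 2 or control 3 (limma adjusted p = 0.0947, 0.108, 0.104 and 0.0675), without the filter on dim probes (0.0541) or with the replicate block (0.0732). The same comparison left the brightest probe of Trp53, the gene of p53 itself, at 0.03 ± 0.29 with overlapping groups. A dimmer Trp53 probe gave 0.78 ± 0.45, also with overlapping groups, and −0.28 on the same day. No test of the difference between these 20 genes and the 6 repair genes was made.

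Members known as E2F or DREAM targets that peak in S and G2 phase were Chek1, Brca1, Brca2, Bard1, Rad54l, Fanca, Fancd2, Blm, Msh6 and Ung. None of these 10 passed in limma, and none had an unadjusted p under 0.05. Over all genes tested the shares were 10.6% and 32.5%, so a count from 10 genes says little. Their median difference was −0.02, and all 10 intervals lay between −1 and 1. Of 20 proliferation markers, 1 fell, Rrm2, a subunit of ribonucleotide reductase made in S phase, and the median was −0.07.

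The same pathways were also read outside the set. Of 77 other damage response genes, 75 were measured, and 2 rose and 0 fell in limma. That is 2.67% called, against 10.6% of all genes tested, but 7 rose without control 1 and 0 without CKO 1. An unadjusted p under 0.05 was found for 19 (25.3%, against 32.5% of all genes), and the median was 0.15. Neil1, a glycosylase for oxidised bases, was read at −0.40, −0.93 and −0.65 in CKO arrays and −2.01, −1.67 and −1.41 in controls, and rose by 1.04 ± 0.23 (limma, Benjamini-Hochberg adjusted p = 0.0397). Rad51d, which acts in a complex with Xrcc2, was read at 0.34, −0.11 and −0.05 and at −1.09, −0.89 and −0.83, and rose by 0.99 ± 0.18 (adjusted p = 0.0271). The groups did not overlap for either gene. With median scaling neither passed (adjusted p = 0.0619 and 0.0504), nor did either without CKO 1, CKO 3, control 2 or control 3.

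**Figure D4:**
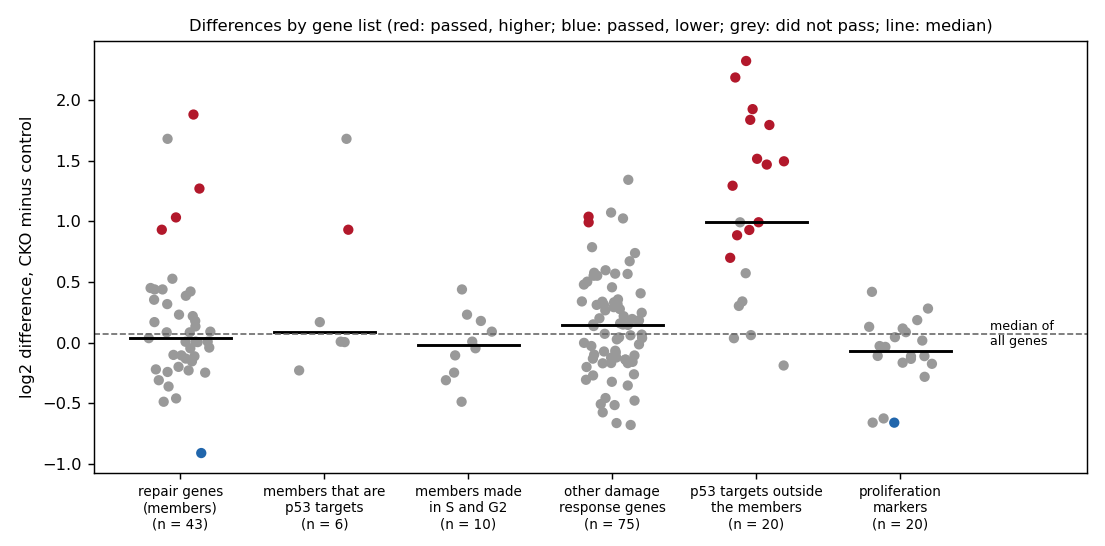
Log2 difference, CKO minus control (y axis), of each gene in 6 lists (x axis); red points rose, blue fell and grey did not pass, black lines are medians and the dashed line is the median of all genes, 0.07. Genes of the set, its S and G2 members and the other damage response genes centre near the median of all genes, and the 20 p53 targets outside the set lie mostly above it.

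The calls among the repair genes depended on which arrays and blocks entered the fit. With scan day or the spike-in split as a block, the genotype difference comes only from CKO 2 and the 3 controls. No control shares such a block with CKO 1 or CKO 3. These fits therefore return the same-day values, and no count of calls is drawn from a comparison with 1 CKO array. Without CKO 1, CKO 3 or control 2 only Ercc2 passed, without control 3 Chek2 and Ercc2, and without CKO 2 the 5 genes and Rrm2b. The same-day values of the 5 called genes were 1.70 for Ercc2, 1.15 for Chek2, 0.71 for Polk, 0.61 for Xrcc2 and −0.62 for Fancg. Their signs could not differ from those of the fit, because every CKO array lay beyond every control for these genes. Summed over the 43 genes, linear levels were 141.5 to 150.1 in CKO arrays and 138.6 to 160.9 in controls, with control 1 the highest.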

How the data were processed

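Total RNA of whole embryos, 250 ng per sample, was labelled with Cy3 and hybridised to 1 Agilent mouse array each, per the labels. The deposited scanner files hold intensity values that the authors made with Agilent Feature Extraction 9.5, per the submitters' processing notes. Per the file headers, background was subtracted and trends removed within each array, with no scaling between arrays; other deposited columns give the raw mean intensity, the local background intensity and, with unit other, yes-or-no flags such as saturation. The deposited series table holds the same processed intensity.

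Control and outlier spots were left out, spots of a probe averaged, and signals scaled to each array's 75th percentile (957.5 to 1627 units) on a log2 scale. Well above background were 68.5% to 73.5% of spots. Dim probes were dropped unless every array of 1 genotype or the other carried the flag, which left 27853 of 41174. Probes were named from a RefSeq table (GRCm38.p6): 22944 by accession, 6664 by symbol, 3108 by older symbol, and 8458 kept the file's name. A gene was read from its probe with the highest mean. Genotypes were compared with limma 3.58.1 in R 4.3.3 (lmFit and eBayes, two-sided, Benjamini-Hochberg over all kept probes). The number of arrays limits the precision, and a limma p-value sets a difference against the spread between samples of the same genotype. Whether that spread is between single embryos or pools is unknown. Simulated data held 27840 probes, with log2 changes of 1, 2 and 4 in 68, 73 and 59 of them. The fit recovered 32.4%, 78.1% and 94.9% of these changes, with 12 false calls of 147. A far smaller share was changed there than the 10.6% of genes called here, so these rates do not describe this comparison. Recovery under shifts of scan day or slide was not tested. The members and gene lists were chosen with earlier results of these data known.

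All members that passed, those that are p53 targets, the kinases and the member with the smallest p of each other role are given with full values, as are up to 4 other damage response genes per direction that passed. Of the p53 targets, Cdkn1a, Mdm2 and Ccng1 were named. Markers of leukocytes were also read: 1 of 3 measured fell. Alternatives were quantile and median scaling, normexp (offset 50), no filter and a stricter filter, the series table, an intensity trend with robust variances, slide, scan day, spike-in split and replicate number as blocks, the mean of a gene's probes, and each array left out.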

Additional observations from a re-analysis of the deposited data

How the results depend on the processing

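The 4 rises and 1 fall among the repair genes were also found with quantile scaling, median scaling, normexp, the stricter filter and slide as a random block. The series table holds the same processed intensity, so its identical calls were fixed in advance. The counts were 2 higher and 0 lower without a filter, with the replicate block and with the mean of a gene's probes, and 4 and 2 with an intensity trend. They were 1 to 5 higher and 0 to 1 lower with each array left out in turn. Scan day or the spike-in split as a block left only CKO 2 to compare with the controls, so no counts are given for these fits. Among the other damage response genes, 2 higher became 0 with median scaling, no filter and the replicate block, and 4 with normexp. The 0 lower became 1 with normexp and 3 with an intensity trend, and leaving out arrays gave 0 to 7 higher and 0 to 1 lower. All genes called, 1587, became 694 without a filter, 0 with scan day (1795 at an unadjusted p under 0.05), 122 with the spike-in split, 572 with the replicate block, and 307 to 2542 with arrays left out. Apart from the arithmetic of fewer arrays or more probes tested, the cause of these changes was not tested. Only Xrcc2 reversed among the called genes, ranging from −0.55 to 1.24 with each array left out, with −0.55 without CKO replicate 1 and −0.35 without CKO replicate 3, where another probe became its brightest. Replicate numbers did not pair the samples: deviations of same-numbered arrays correlated at −0.127, 0.081 and 0.091, and with the replicate block Chek2 and Ercc2 passed. The median of all probes was 0.07 in the fit reported, and −0.02 to 0.02 with the other scalings. Among repair genes that did not pass, up to 8 changed sign in a setting, most often with scan day or the spike-in split. Depth is limited by signal: Rrm2b and Polh were the dimmest of the set.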
